A study of Homo sapiens with 6 samples.

Results

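The genes described here are 10 of the 25330 genes in the count table: SPDEF, AGR2, GATA3, KRT7, KRT8, KRT18, KRT19, ESRP1, ESRP2 and CD24. They were picked by name as luminal epithelial genes, with their values in this comparison known, so their differences between the groups are given as a description and carry no test. Counts came from 6 poly-A RNA-seq libraries of MDA-MB-231, an established human breast cancer line. The groups were 3 libraries of RNASEH2A KO cells and 3 libraries of CTRV2 control cells. RNASEH2A is the catalytic chain of RNase H2, which cuts ribonucleotides out of genomic DNA. Both groups were grown in RPMI-1640 with fetal bovine serum and received no treatment, per the labels. All 6 libraries carry the same batch label. RNA of each group came from separate passages, and the sources used here do not give whether the KO cells are a clone or a pool. P-values below therefore measure the spread between passages.

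Luminal cells line the ducts and the milk-producing lobules of the breast, and they are told apart from the basal, myoepithelial layer by the keratins that fill their cytoplasm. GATA3 is the transcription factor that specifies and maintains them, SPDEF is an ETS factor of luminal and secretory epithelium, and AGR2 is an endoplasmic reticulum protein of secretory cells that folds mucins. ESRP1 and ESRP2 are RNA-binding proteins that set the epithelial pattern of splicing. CD24 is a small, heavily glycosylated surface protein of luminal cells. MDA-MB-231 is classed among the claudin-low lines, in which most of this programme is low.

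Libraries held 27928670 to 31596286 counts in KO cells and 25419877 to 29635083 in control cells. Levels are given as CPM, the counts scaled by each library's effective total. A gene at 0 could have up to 3 counts by counting error alone, which is 0.0934 to 0.119 CPM here. KO replicate 1 stood apart from the other KO libraries. Over 10496 genes its root mean square log2 difference was 0.326 from KO replicate 2 and 0.267 from KO replicate 3, against 0.161 between KO replicates 2 and 3 and 0.119 to 0.198 among the controls. Control replicate 1 was 0.198 and 0.195 from control replicates 2 and 3, which were 0.119 from each other. Differences between KO and control libraries were 0.315 to 0.389, the smallest being that between KO replicate 1 and control replicate 1. RNASEH2A itself had 7, 8 and 16 counts in KO libraries and 10, 6 and 15 in control libraries, so the genotype labels cannot be checked from it, and each direction below rests on those labels. The mesenchymal markers of the line (VIM, CD44, CAV1, AXL and MSN, all 5 detected) summed to 5492 to 5773 CPM in KO cells and 5768 to 6169 CPM in control cells. Leukocyte markers summed to 2.70 to 4.24 CPM in KO cells and 4.25 to 4.98 CPM in control cells, with MS4A1 at 0, PTPRC at 0 in the KO libraries and 7 of 9 listed. Endothelial markers, all 4 listed, summed to 2.49 to 5.13 CPM in KO cells and 3.44 to 4.05 CPM in control cells. Fibroblast markers, 6 of 7 listed and PDGFRA at 0, summed to 46.1 to 93.2 CPM in KO cells and 49.3 to 54.5 CPM in control cells. The highest fibroblast sum was that of KO replicate 1, where COL1A2 had 56.0, PDGFRB 27.2 and COL1A1 9.13 CPM. COL3A1 had 0.0623 and LUM 0.810 CPM there. COL1A2, PDGFRB and COL1A1 made up most of the sum in every library, and which cells they came from was not tested.

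Across all 14199 tested genes, 1718 genes, or 12.1%, were called at a Benjamini-Hochberg adjusted p under 0.05 by edgeR's quasi-likelihood test. Of these, 835 (5.88%) were higher and 883 (6.22%) were lower in KO cells. Of the 10 luminal genes, 9 passed the filter on low counts. Of these 9, 4 were called lower (SPDEF, AGR2, KRT18 and ESRP2), and the other 5 were not called. The values of KO and control libraries did not overlap for 7 of the 9, against 33.5% of all tested genes (17.4% lower in KO cells). The median log2 fold change of the 9 genes was -0.49, with a range of -2.55 to -0.08, against a median of 0.00 and a median size of 0.17 over all tested genes. Without KO replicate 1, 3430 genes and 6 of the luminal genes were called. In a fit with the replicate number as a block, 3099 of 14199 genes were called, 1506 higher and 1593 lower. Block counts of the lists below are to be set against these numbers and not against the 12.1% of the main fit. Nothing is read from these shares, since the genes were chosen on this contrast. The differences thus covered a wide range, from large ones in SPDEF and AGR2 to small ones in KRT8, KRT19 and GATA3.

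**Figure D1:**
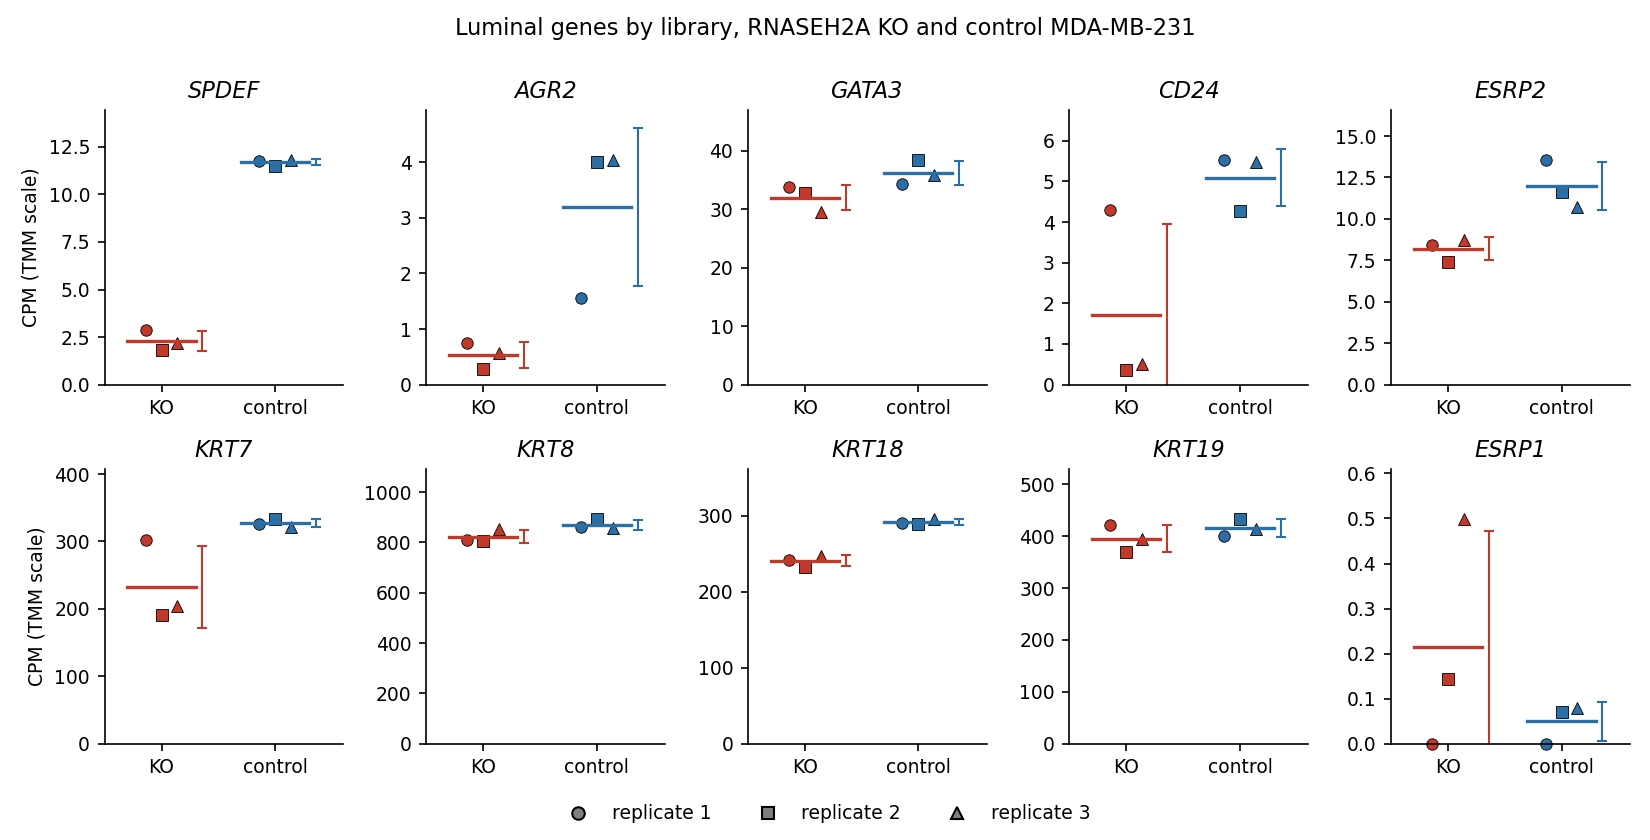
CPM of each luminal gene (vertical axes, starting at 0) in the 3 KO libraries (red) and the 3 control libraries (blue). Marker shapes give the replicate number, horizontal lines the mean and bars the SD. SPDEF lies between 1.80 and 2.87 CPM in KO cells, below all control values, while KRT7 and CD24 in KO replicate 1 lie near the controls.

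SPDEF and AGR2 had the largest fold differences of the 10 genes, and the sequences before their start sites are shown for that reason. Of the 10 genes, 5 had a promoter in the RefSeq table (GRCh38.p14): SPDEF, AGR2, GATA3, KRT8 and CD24. The 250 bases before the RefSeq start were searched, and those outside annotated exons are printed, read 5′ to 3′ on the minus strand. For AGR2 that start lies inside the span of the gene in GENCODE 29, downstream of the first exon of a longer annotated form. The SPDEF stretch of 246 bases is chr6:34556334-34556579, with a forkhead core (GTAAATA) in capitals. The AGR2 stretch of 169 bases is chr7:16805081-16805249, with a GATA core (AGATAA) in capitals.
SPDEF: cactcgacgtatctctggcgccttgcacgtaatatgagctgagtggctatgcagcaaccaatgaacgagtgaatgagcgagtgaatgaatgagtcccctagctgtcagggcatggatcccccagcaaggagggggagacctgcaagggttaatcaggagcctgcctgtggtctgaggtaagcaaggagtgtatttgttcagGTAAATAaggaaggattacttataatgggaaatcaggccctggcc
AGR2: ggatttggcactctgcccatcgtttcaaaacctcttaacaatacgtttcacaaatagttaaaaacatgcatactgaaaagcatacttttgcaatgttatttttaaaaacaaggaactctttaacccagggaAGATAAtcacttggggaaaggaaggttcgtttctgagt
The forkhead core begins 49 bases before the SPDEF start site. Of 35116 promoters, 5.27% hold GTAAACA or GTAAATA on either strand within the same 250 bases. The GATA core begins 119 bases before the AGR2 start site, and 14.6% of promoters hold AGATAA or TGATAA on either strand. The letters GGAT, the core that SPDEF prefers, occur 3 times in the SPDEF window and 2 times in the AGR2 window on either strand. They share no base with the marked motifs and are in 70.7% of promoters. CACCTG, the E-box core read by ZEB and SNAIL repressors, is in neither window and in 17.5% of promoters. These motifs were chosen after the sequences were seen, and a match describes letters only.

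Transcript of SPDEF, the ETS factor, was low in every KO library. Its CPM was 2.87, 1.80 and 2.21 in KO cells and 11.7, 11.5 and 11.8 in control cells, from counts of 92, 50 and 62 in KO libraries and 348, 328 and 298 in control libraries. The groups were far apart, and the 3 controls were nearly equal. On average SPDEF had 2.29 ± 0.539 CPM in KO cells and 11.7 ± 0.167 CPM in control cells (SD, n = 3 each), or 5.07-fold lower in KO cells, with a log2 fold change of -2.34 ± 0.17 (SE). It lies on chromosome 6 (34537802 to 34556333, minus strand, GENCODE 29 on GRCh38). In bulk RNA, fewer cells carrying a transcript and less of it per cell cannot be told apart, here and for each gene below.

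AGR2, on chromosome 7 (16791811 to 16833433, minus strand), was scarce in both groups and lower in KO cells. It had 24, 8 and 16 counts in KO libraries and 46, 114 and 102 in control libraries. These are 0.747, 0.288 and 0.571 CPM in KO cells and 1.55, 4.00 and 4.05 CPM in control cells. The groups did not overlap, although control replicate 1 held less than the other controls. The means were 0.535 ± 0.232 CPM in KO cells and 3.20 ± 1.43 CPM in control cells (SD, n = 3 each), 5.86-fold lower in KO cells. The log2 fold change was -2.55 ± 0.45 (SE). SPDEF and AGR2 kept their calls in all 14 alternatives of processing and left-out libraries, AGR2 only narrowly without KO replicate 3. Log2 fold changes were -2.54 to -2.19 for SPDEF and -2.89 to -2.25 for AGR2. The alternatives reuse the libraries on which the genes were chosen, so they describe the dependence on processing and are no further support.

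The genes most alike to SPDEF over the 6 libraries were found by the root mean square distance of log2 CPM, each gene set to its control mean, among 10495 genes with a mean of at least 5 CPM. FOXA2, a forkhead factor of endoderm and secretory epithelium, was nearest at a distance of 0.226. It had 3.74, 2.16 and 1.93 CPM in KO cells and 16.5, 13.5 and 12.5 CPM in control cells, so its groups lay as far apart as those of SPDEF. DACT2, a regulator of Wnt and TGF-beta signalling, followed at 0.238 with 1.86 ± 0.117 CPM in KO cells and 8.21 ± 0.679 CPM in control cells (SD, n = 3 each). The hair keratin KRT81 came next at 0.284, with 36.8, 19.0 and 23.8 CPM in KO cells and 98.1, 97.7 and 104 CPM in control cells. Its highest KO value was that of replicate 1, as for SPDEF. For AGR2 the nearest of 10496 genes were the galectin LGALS12 (0.460), SPDEF itself (0.485) and CMKLR1 (0.513), a receptor for chemerin. CMKLR1 had 5.54, 2.80 and 3.00 CPM in KO cells and 10.5, 14.5 and 15.6 CPM in control cells. In CMKLR1, as in AGR2, control replicate 1 was the lowest control. This measure picks genes that differ between the groups in the way that SPDEF and AGR2 do, so their differences are likewise a description.

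**Figure D2:**
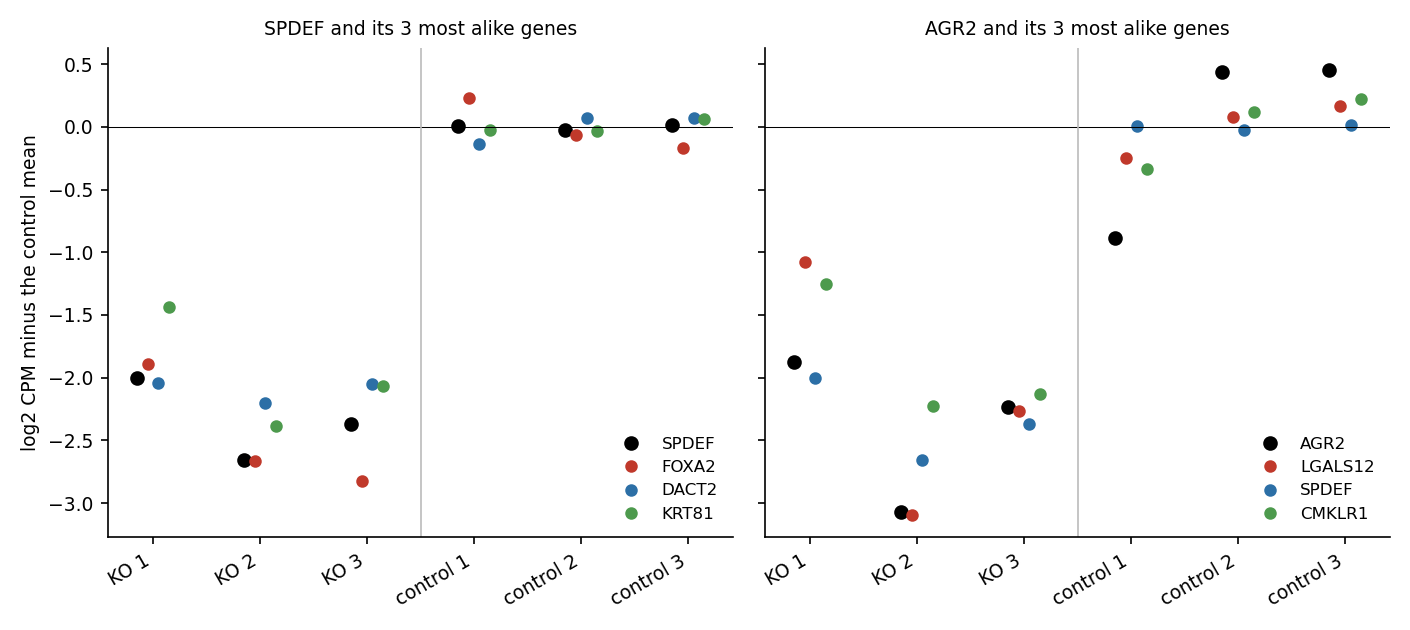
Log2 CPM of each gene minus its control mean (vertical axis) in the 6 libraries, for SPDEF with its 3 most alike genes (left) and AGR2 with its own (right). All 4 genes of the left panel lie more than 1 log2 unit below their control mean in every KO library.

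Among 26 other ETS factors, 20 were tested, of which 2 rose and 2 fell, or 20% called, with a median log2 fold change of 0.00. ETS1, an activator of invasion genes, rose to 311 ± 15.6 CPM in KO cells, against 230 ± 6.58 CPM in control cells (SD, n = 3 each). Its log2 fold change was 0.43 ± 0.06 (SE), with an edgeR adjusted p of 0.00289. EHF, an epithelial ETS factor, fell to 80.0 ± 21.4 CPM in KO cells, against 127 ± 7.23 CPM in control cells (edgeR adjusted p = 0.0224). EHF was highest in KO replicate 1 of the KO libraries (105, against 68.4 and 66.9 in the other KO libraries). It was not called without control replicate 1, 2 or 3 or without KO replicate 2 or 3 (edgeR adjusted p = 0.0511, 0.0856, 0.0925, 0.0558 and 0.109). ETV1 fell by 0.41 on the log2 scale (adjusted p = 0.0157), and FLI1, near the limit of detection at 0.872 CPM in KO cells and 0.273 CPM in control cells, rose by 1.69 (adjusted p = 0.0487). ETV1 lost its call without control replicate 2 or 3 or KO replicate 3, with edgeR adjusted p of 0.0788 to 0.0899. FLI1 lost it without control replicate 1 or 2 or KO replicate 2 or 3, with adjusted p of 0.0792 to 0.199. SPDEF and its relatives thus moved in both directions.

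GATA3, on chromosome 10 (8045378 to 8075203, plus strand), was slightly lower in KO libraries. It had 33.7, 32.7 and 29.5 CPM in KO cells and 34.3, 38.4 and 35.9 CPM in control cells. The groups did not overlap, but the lowest control and the highest KO value were close. Its means were 31.98 ± 2.21 CPM in KO cells and 36.2 ± 2.11 CPM in control cells (SD, n = 3 each). The log2 fold change of -0.18 ± 0.09 (SE) was not called, nor was it in any alternative (-0.22 to -0.12). Of 11 other GATA factors and cofactors, 7 were tested and 1 fell (14.3% called, median -0.18), or 3 in a fit with the replicate number as a block. That gene is ZFPM2, a zinc finger cofactor that binds GATA factors, with 1.348 ± 0.273 CPM in KO cells and 2.91 ± 0.459 CPM in control cells (log2 fold change -1.10 ± 0.25, SE, edgeR adjusted p = 0.0193). Its call was lost without control replicate 2 or 3 or KO replicate 3 (edgeR adjusted p = 0.0975, 0.0729 and 0.0598). GATA6 had 47.5 CPM in KO cells and 59.8 CPM in control cells and was not called (edgeR adjusted p = 0.0534). GATA6 was called in 5 of 14 alternatives, among them the block (log2 fold change -0.34) and the fit without KO replicate 1 (-0.43).

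The AGR family and other secretory or goblet cell genes formed a list of 24, of which 11 were tested and 1 fell (9.09% called, median -0.26), or 4 of the 11 with the replicate block, 1 of them higher. The gene that fell was FOXA2, at 2.61 ± 0.986 CPM in KO cells and 14.2 ± 2.07 CPM in control cells (SD, n = 3 each). Its log2 fold change was -2.43 ± 0.23 (SE, edgeR adjusted p = 0.000515), and it held in all alternatives. TXNDC12, a thioredoxin-like protein of the AGR family, had 7.15 CPM in KO cells and 6.82 CPM in control cells and was not called. MUC1, a transmembrane mucin of luminal cells, was not called and was uneven, with 20.0, 5.61 and 6.56 CPM in KO cells and 17.0, 18.6 and 16.0 CPM in control cells. KO replicate 1 was the one KO library at the control level. MUC1 was called without it (log2 fold change -1.497) and with the block (-0.86). MUC1 falls outside the naming rule and was chosen after its values were seen.

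The splicing regulators ESRP1 and ESRP2 were both low, as is known for mesenchymal lines. ESRP1 had 0, 4 and 14 counts in KO libraries and 0, 2 and 2 counts in control libraries. It failed the filter on low counts, was not tested and is given no fold. At 0, 0.144 and 0.499 CPM in KO cells and 0, 0.0702 and 0.0794 CPM in control cells, most values are at or near the level of 3 counts.

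ESRP2, on chromosome 16 (68229111 to 68238102, minus strand), was the expressed member of the pair and was lower in KO cells. It had 8.44, 7.404 and 8.74 CPM in KO cells and 13.6, 11.6 and 10.7 CPM in control cells. The highest KO value stayed below the lowest control value. Means were 8.19 ± 0.700 CPM in KO cells and 11.97 ± 1.46 CPM in control cells (SD, n = 3 each), with a log2 fold change of -0.55 ± 0.13 (SE). The call was lost without any control replicate 1, 2 or 3 and without KO replicate 2 or 3, with log2 fold changes of -0.45, -0.57, -0.62, -0.48 and -0.59. The exons of ESRP2 share 2.68% of their bases with NFATC3 on the opposite strand, and the sources used here do not say whether counting used the strand.

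Other regulators of epithelial and mesenchymal splicing formed a list of 33, of which 27 were tested. Of these, 1 rose and 2 fell (11.1% called, median -0.10), or 3 and 8 with the replicate block. KHDRBS3, a STAR family splicing factor, fell to 4.64 ± 1.38 CPM in KO cells, against 10.4 ± 0.866 CPM in control cells (SD, n = 3 each). The log2 fold change of KHDRBS3 was -1.16 ± 0.21 (SE, edgeR adjusted p = 0.00822). PTBP1, a repressor of many alternative exons, fell to 693 ± 36.5 CPM in KO cells, against 839 ± 18.6 CPM in control cells (edgeR adjusted p = 0.0158). PTBP1 was not called without control replicate 1, 2 or 3 or KO replicate 3 (edgeR adjusted p = 0.0517, 0.0705, 0.0792 and 0.0723). CELF2, which binds intronic and untranslated sequence, rose to 21.2 ± 0.689 CPM in KO cells, against 15.0 ± 0.758 CPM in control cells (edgeR adjusted p = 0.00798), and 0.0510 without KO replicate 3. RBFOX2, an exon regulator active in mesenchymal cells, had 205 CPM in KO cells and 220 CPM in control cells and was not called, except without KO replicate 1 (log2 fold change -0.17). QKI, an RNA-binding regulator of mesenchymal splicing, had 120 CPM in KO cells and 157 CPM in control cells (edgeR adjusted p = 0.0556). It was called in 5 of 14 alternatives, among them the block (log2 fold change -0.40) and the fit without KO replicate 1 (-0.53). RBM47, an epithelial regulator, had 96.2 CPM in KO cells and 83.8 CPM in control cells and was not called; it falls outside the naming rule and was chosen after its values were seen.

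Genes whose exons are known to be regulated by ESRP1 and ESRP2 were read as whole-gene counts, which say nothing of exon use. Of 29 such genes, 28 were tested, and 4 rose and 2 fell (21.4% called, median -0.04), or 5 and 5 with the replicate block. FGFR1 rose to 338 ± 10.9 CPM in KO cells, against 269 ± 0.862 CPM in control cells (SD, n = 3 each). Its edgeR adjusted p was 0.00611, and 0.0507 without control replicate 3. ENAH, an actin regulator with an epithelial exon, fell to 34.5 ± 3.39 CPM in KO cells, against 50.3 ± 2.22 CPM in control cells (edgeR adjusted p = 0.00555). INF2, a formin, rose by 0.29 on the log2 scale (edgeR adjusted p = 0.00986), and ADAM15 fell by 0.40 (edgeR adjusted p = 0.0117). Both lost their calls without control replicate 2 or 3 or KO replicate 3, with edgeR adjusted p of 0.0565 to 0.0734 for INF2 and 0.0585 to 0.0740 for ADAM15. The splice-switching receptor CD44 had 1117 CPM in KO cells and 1264 CPM in control cells and was not called, but was with the block (log2 fold change -0.18).

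Keratins pair as heteropolymers of a type II chain (KRT7, KRT8) with a type I chain (KRT18, KRT19). All 4 were abundant, and the 2 chains of each type differed in how far KO and control cells were apart. Per kilobase of the principal transcript, KRT8 had 387 ± 12.7 CPM in KO cells and 410 ± 9.24 CPM in control cells, and KRT19 had 284 ± 18.7 CPM in KO cells and 299 ± 12.1 CPM in control cells (SD, n = 3 each). On the same scale KRT18 had 154 ± 4.62 CPM in KO cells and 187 ± 2.27 CPM in control cells. KRT7 had 133 ± 34.6 CPM per kilobase in KO cells and 187 ± 3.39 CPM per kilobase in control cells. KRT8 and KRT19 thus led in both groups on this scale, and KRT18 and KRT7 did not differ beyond their spread in either. The order depends on the length used. Per kilobase of all annotated exons, KRT19 came first with 169 ± 11.1 CPM in KO cells and 178 ± 7.22 CPM in control cells, and KRT8 next with 119.6 ± 3.93 CPM in KO cells and 127 ± 2.86 CPM in control cells. On that scale KRT18 had 74.9 ± 2.24 CPM in KO cells and 90.8 ± 1.10 CPM in control cells, above KRT7 with 56.9 ± 14.8 CPM in KO cells and 79.9 ± 1.45 CPM in control cells (SD, n = 3 each).

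KRT8, on chromosome 12 (52897187 to 52949954, minus strand), had 810, 805 and 854 CPM in KO cells and 860, 893 and 859 CPM in control cells. KRT8 had a log2 fold change of -0.08 ± 0.05 (SE) and was not called. KRT18, a type I partner of KRT8, lies on the same chromosome (52948871 to 52952901, plus strand). It had 242, 233 and 248 CPM in KO cells and 290.5, 289.6 and 296 CPM in control cells. The KRT18 groups were clearly apart and each was narrow. Its log2 fold change of -0.28 ± 0.06 (SE) was called, and the call was lost without control replicate 2 or 3 (-0.28 and -0.27) and without KO replicate 3 (-0.30). The loci of KRT8 and KRT18 overlap on opposite strands over 7.63% of the exonic bases of KRT8 and 16.3% of those of KRT18. Processed copies held few counts, 1.54% of those of KRT8 over 30 copies and 0.483% of those of KRT18 over 38 copies.

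KRT19, on chromosome 17 (41523617 to 41528308, minus strand), had 421, 369 and 395 CPM in KO cells and 399.8, 433 and 415 CPM in control cells. The groups overlapped, and the log2 fold change of -0.08 ± 0.07 (SE) was not called. KRT7, on chromosome 12 (52232520 to 52252186, plus strand), had 302.5, 192 and 204 CPM in KO cells and 326, 333.5 and 322 CPM in control cells. KRT7 in KO replicate 1 lay close below the controls, and the other KO libraries lay well below them. The log2 fold change of KRT7 was -0.49 ± 0.15 (SE) and was not called. Without KO replicate 1 it was -0.72 and called, and with the replicate block it was -0.52 and called.

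Ratios within a library do not depend on its depth or scaling. Per kilobase, KRT8 over KRT18 was 2.46, 2.53 and 2.53 in KO cells and 2.17, 2.27 and 2.13 in control cells. Each KO ratio was above each control ratio, with means of 2.51 ± 0.0451 in KO cells and 2.19 ± 0.0692 in control cells (SD, n = 3 each) and a log2 difference of 0.20. KRT7 over KRT8 was 0.453, 0.289 and 0.290 in KO cells and 0.460, 0.453 and 0.454 in control cells. KO replicate 1 was at the control ratio. The sum of the type II chains over the sum of the type I chains was 1.19 ± 0.0204 in KO cells and 1.23 ± 0.0215 in control cells, and these groups overlapped. Per kilobase of all annotated exons that ratio was 0.723 ± 0.0237 in KO cells and 0.768 ± 0.0142 in control cells, and the groups did not overlap. The 4 keratins made up 81.8, 82.2 and 83.4% of the CPM of 33 keratin genes in KO cells and 79.2, 80.3 and 79.7% in control cells.

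**Figure D3:**
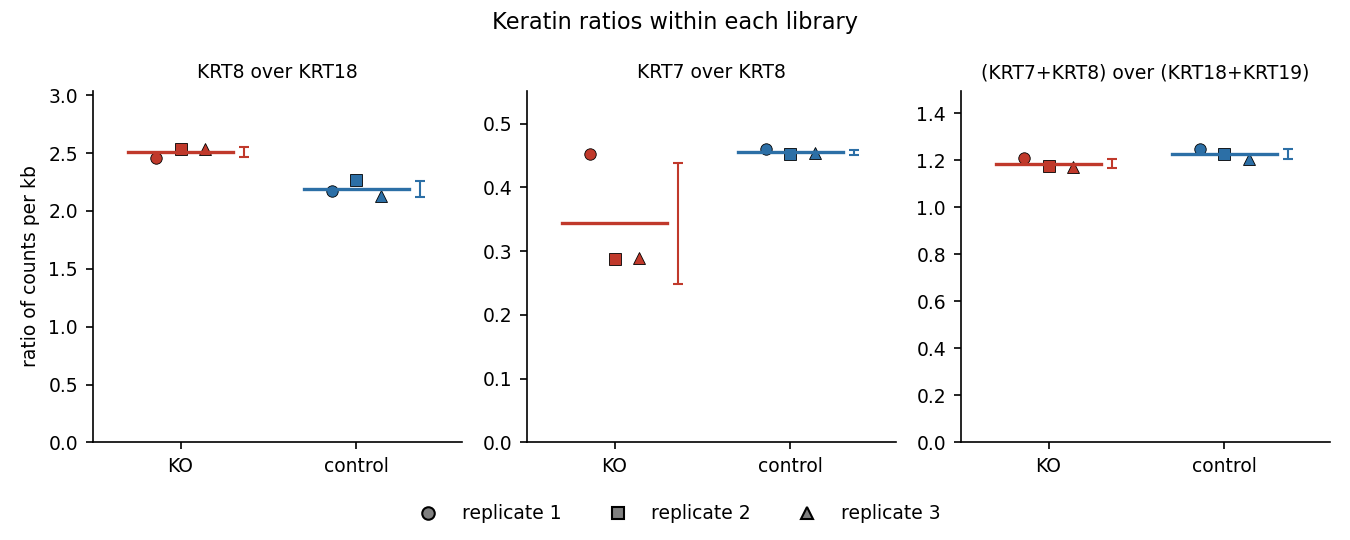
Ratios of counts per kilobase (vertical axes, starting at 0) within each of 3 KO libraries (red) and 3 control libraries (blue), with the mean as a line and the SD as a bar. KRT8 over KRT18 is higher in every KO library, and KRT7 over KRT8 is 0.289 and 0.290 in KO replicates 2 and 3, with KO replicate 1 at the control level.

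Of 35 other keratins, 7 were tested and 1 fell (14.3% called, median -0.12), or 3 with the replicate block. KRT81, a type II hair keratin, fell to 26.6 ± 9.21 CPM in KO cells, against 99.99 ± 3.61 CPM in control cells (SD, n = 3 each). The log2 difference was -1.91 ± 0.19 (SE, edgeR adjusted p = 0.000617), and the call held in all alternatives. Its close relative KRT86 had 2.22 ± 1.21 CPM in KO cells and 4.89 ± 0.595 CPM in control cells and was not called (edgeR adjusted p = 0.0521). It was called in 6 of 14 alternatives, among them the block (log2 fold change -1.20) and the fit without KO replicate 1 (-1.66). KRT81 and KRT86 are near-identical copies, so reads of one may be counted to the other. KRT80 had 253 CPM in KO cells and 295 CPM in control cells and was not called, but was with the block (log2 fold change -0.23) and without KO replicate 1 (-0.32). The basal keratins KRT5 and KRT6A had no count in any library.

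Of 18 partners of keratins and other intermediate filaments, 17 were tested, with 2 higher and 1 lower (17.6% called, median 0.04), or 4 and 2 with the replicate block. PKP2, a desmosomal plakophilin, fell to 23.6 ± 2.18 CPM in KO cells, against 41.5 ± 1.48 CPM in control cells (SD, n = 3 each). The log2 fold change of PKP2 was -0.81 ± 0.09 (SE, edgeR adjusted p = 0.000943). EVPL, which encodes envoplakin, rose to 115 ± 12.7 CPM in KO cells, against 75.2 ± 13.3 CPM in control cells (edgeR adjusted p = 0.0133). DSP, which encodes desmoplakin, rose to 225 ± 9.17 CPM in KO cells, against 190 ± 2.21 CPM in control cells (edgeR adjusted p = 0.0276). Without control replicate 2 or 3 or KO replicate 3 the adjusted p was 0.0644 to 0.0714 for EVPL and 0.115 to 0.136 for DSP, and for DSP it was 0.0705 without control replicate 1. The desmosome genes named here therefore moved in both directions.

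CD24, on chromosome 6 (106969831 to 106975627), was uneven within the KO group. It had 138, 10 and 14 counts in KO libraries and 164, 122 and 138 in control libraries. In CPM these were 4.30, 0.359 and 0.499 in KO cells and 5.54, 4.28 and 5.48 in control cells. KO replicate 1 was inside the control range, while KO replicates 2 and 3 were far below it. Means were 1.72 ± 2.23 CPM in KO cells and 5.10 ± 0.709 CPM in control cells (SD, n = 3 each), and the log2 fold change of -1.53 ± 0.68 (SE) was not called. Without KO replicate 1 it was -3.55 and called, and with the replicate block it was -1.97 and called. KO replicate 1 was thus the highest KO library for SPDEF, AGR2, GATA3, KRT7, KRT19 and CD24, and its part in these differences beyond the values given was not tested.

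Of 12 partners of CD24 and other stem-like markers, 8 were tested and edgeR called 0, with 5 at an unadjusted p under 0.05. DESeq2 called 2 of them, limma-voom 0, and edgeR with the replicate block 5. ALDH1A3, an aldehyde dehydrogenase of luminal progenitors, had 6.75 ± 1.07 CPM in KO cells and 9.53 ± 1.19 CPM in control cells (SD, n = 3 each). Its log2 fold change was -0.50 ± 0.16 (SE, edgeR adjusted p = 0.0730, called with the block at -0.50). LYN, a SRC family kinase that associates with CD24, had 67.1 ± 7.73 CPM in KO cells and 55.3 ± 1.76 CPM in control cells, with an edgeR adjusted p of 0.0737. It was called without KO replicate 1 (log2 fold change 0.35) and with the block (0.28).

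Per kilobase of principal transcript, the other members ordered differently in the 2 groups. GATA3 came after the keratins, with 12.1 ± 0.833 CPM per kilobase in KO cells and 13.7 ± 0.797 in control cells (SD, n = 3 each). SPDEF had 1.21 ± 0.284 CPM per kilobase in KO cells and 6.17 ± 0.0879 in control cells, and ESRP2 had 2.16 ± 0.185 in KO cells and 3.16 ± 0.384 in control cells. SPDEF was therefore below ESRP2 in KO cells and above it in control cells. CD24 had 0.684 ± 0.889 CPM per kilobase in KO cells and 2.03 ± 0.282 in control cells, and AGR2 had 0.301 ± 0.130 in KO cells and 1.80 ± 0.802 in control cells. CD24 and AGR2 did not differ beyond their spread in either group. ESRP1 was last, at a mean of 0.0563 CPM per kilobase in KO cells and 0.0131 in control cells.

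Each member was set beside the tested genes within 5 Mb on either side. The members were chosen on this contrast, so a low rank among neighbours is a description. A shift of a whole stretch of the chromosome was not tested. SPDEF was lower than each of 169 tested neighbours, whose median log2 fold change was 0.16. AGR2 was lower than each of 14 neighbours (median -0.30, with -0.23 within 2 Mb and -0.13 within 10 Mb), and CD24 lower than each of 38 (median -0.10). For ESRP2 the median of its 96 neighbours was 0.30, and 4 of them were at least as low as ESRP2. That median was 0.29 within 2 Mb and 0.30 within 10 Mb. For the keratins the neighbours lay near 0, with medians of -0.01 for KRT7, -0.02 for KRT8 and KRT18 and 0.08 for KRT19. Of these neighbours, 8 of 141 were at least as low as KRT7 and 18 of 154 as KRT18. For KRT8 these were 59 of 153, and for KRT19 40 of 162. GATA3 was within the range of its 40 neighbours (median -0.12), of which 17 were at least as low, and their median was -0.17 within 2 Mb and -0.06 within 10 Mb.

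**Figure D4:**
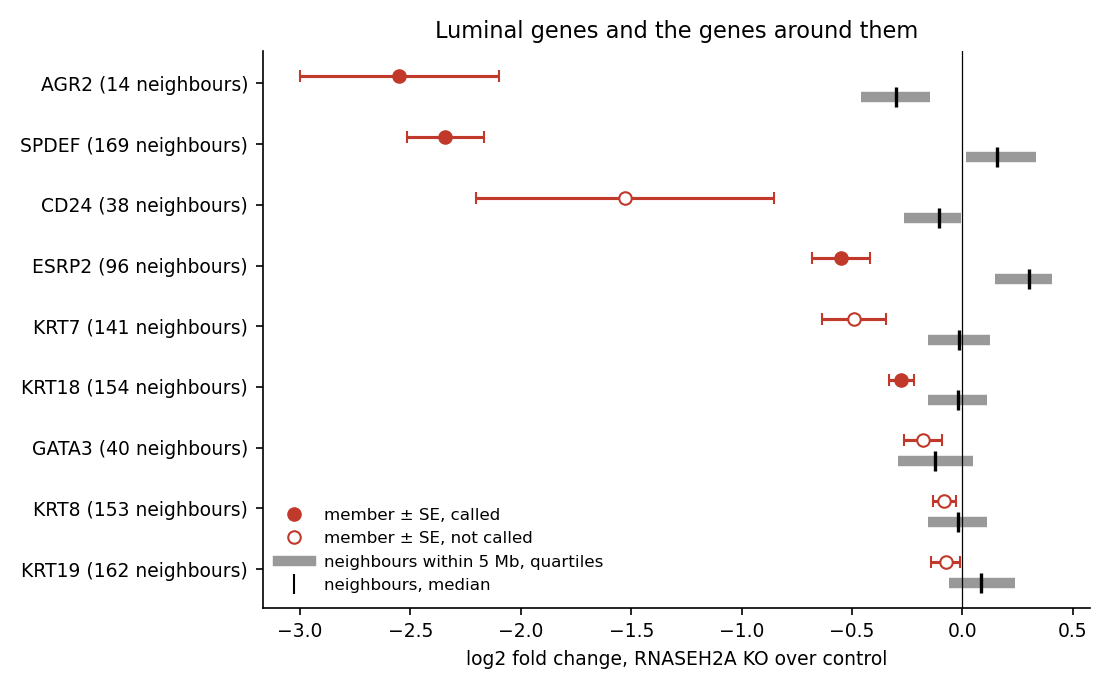
Log2 fold change of RNASEH2A KO over control (horizontal axis) for 9 luminal genes (red points with SE, filled where called) and for the tested genes within 5 Mb (grey bars span the quartiles, black ticks the median). SPDEF and ESRP2 lie below 0 among neighbours whose medians are 0.16 and 0.30.

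Genes of the wider luminal and epithelial programme that passed the test lay on both sides of 0. Of 48 other luminal and epithelial lineage genes, 28 were tested, with 2 higher and 3 lower (17.9% called, median -0.09), or 4 and 8 with the replicate block. CLDN4, a claudin of epithelial tight junctions, rose to 223 ± 11.9 CPM in KO cells, against 157 ± 11.1 CPM in control cells (SD, n = 3 each, edgeR adjusted p = 0.00299). MAL2, a protein of apical transport, fell to 3.602 ± 0.649 CPM in KO cells, against 8.05 ± 1.41 CPM in control cells (edgeR adjusted p = 0.00495). AP1M2, the epithelial subunit of the AP-1 sorting adaptor, fell to 32.3 ± 1.97 CPM in KO cells, against 43.0 ± 3.52 CPM in control cells (edgeR adjusted p = 0.0174). AP1M2 was not called without control replicate 1, 2 or 3 or KO replicate 3 (edgeR adjusted p = 0.0631, 0.0644, 0.0543 and 0.0516). The hormone receptor ESR1 had no count in any library, and its pioneer factor FOXA1 had at most 2 counts. The progesterone receptor PGR had 10, 12 and 8 counts in KO libraries and 0, 2 and 0 in control libraries, more in every KO library, and it failed the filter on low counts. Those defining luminal transcripts are thus at or near 0, while GATA3 and the luminal keratins are present. CDH1 had 0.772 ± 0.845 CPM in KO cells and 1.499 ± 0.691 CPM in control cells and was not called, but was with the block (log2 fold change -1.18) and without KO replicate 1 (-2.38).

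Among 28 basal and myoepithelial genes, 17 were tested, with 4 higher and 1 lower (29.4% called, median 0.03). ITGB4, the integrin chain of hemidesmosomes, rose to 515 ± 44.9 CPM in KO cells, against 366 ± 14.5 CPM in control cells (SD, n = 3 each, edgeR adjusted p = 0.0034). OXTR, the oxytocin receptor of myoepithelial cells, rose to 33.7 ± 2.94 CPM in KO cells, against 21.5 ± 1.16 CPM in control cells (edgeR adjusted p = 0.00316). ACTA2, smooth muscle actin, rose to 2.68 ± 0.363 CPM in KO cells, against 1.09 ± 0.274 CPM in control cells (edgeR adjusted p = 0.0138, and 0.0715 without KO replicate 3). S100A2 fell to 16.7 ± 5.77 CPM in KO cells, against 28.4 ± 0.593 CPM in control cells (edgeR adjusted p = 0.0348), and was not called without control replicate 1, 2 or 3 or KO replicate 2 or 3 (edgeR adjusted p of 0.0574 to 0.157). The basal regulator TP63 had 0.978 CPM in KO cells and 1.03 CPM in control cells and was not called.

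Of 14 claudin-low and mesenchymal markers, 12 were tested and edgeR called 0, with 3 at an unadjusted p under 0.05 (median -0.11). DESeq2 and limma-voom also called 0, and edgeR with the replicate block called 1. The repressors ZEB1, with 70.1 CPM in KO cells and 64.8 CPM in control cells, and SNAI2, with 44.2 CPM in KO cells and 42.2 CPM in control cells, were not called. VIM had 721 ± 38.5 CPM in KO cells and 735 ± 27.2 CPM in control cells (SD, n = 3 each). Over all 11 lists, without the 10 luminal genes, 171 of 255 genes were tested, with 15 higher and 13 lower. That is 16.4% called, with a median log2 fold change of -0.06. The lists were drawn up with earlier results of these data known and support no theme.

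**Figure D5:**
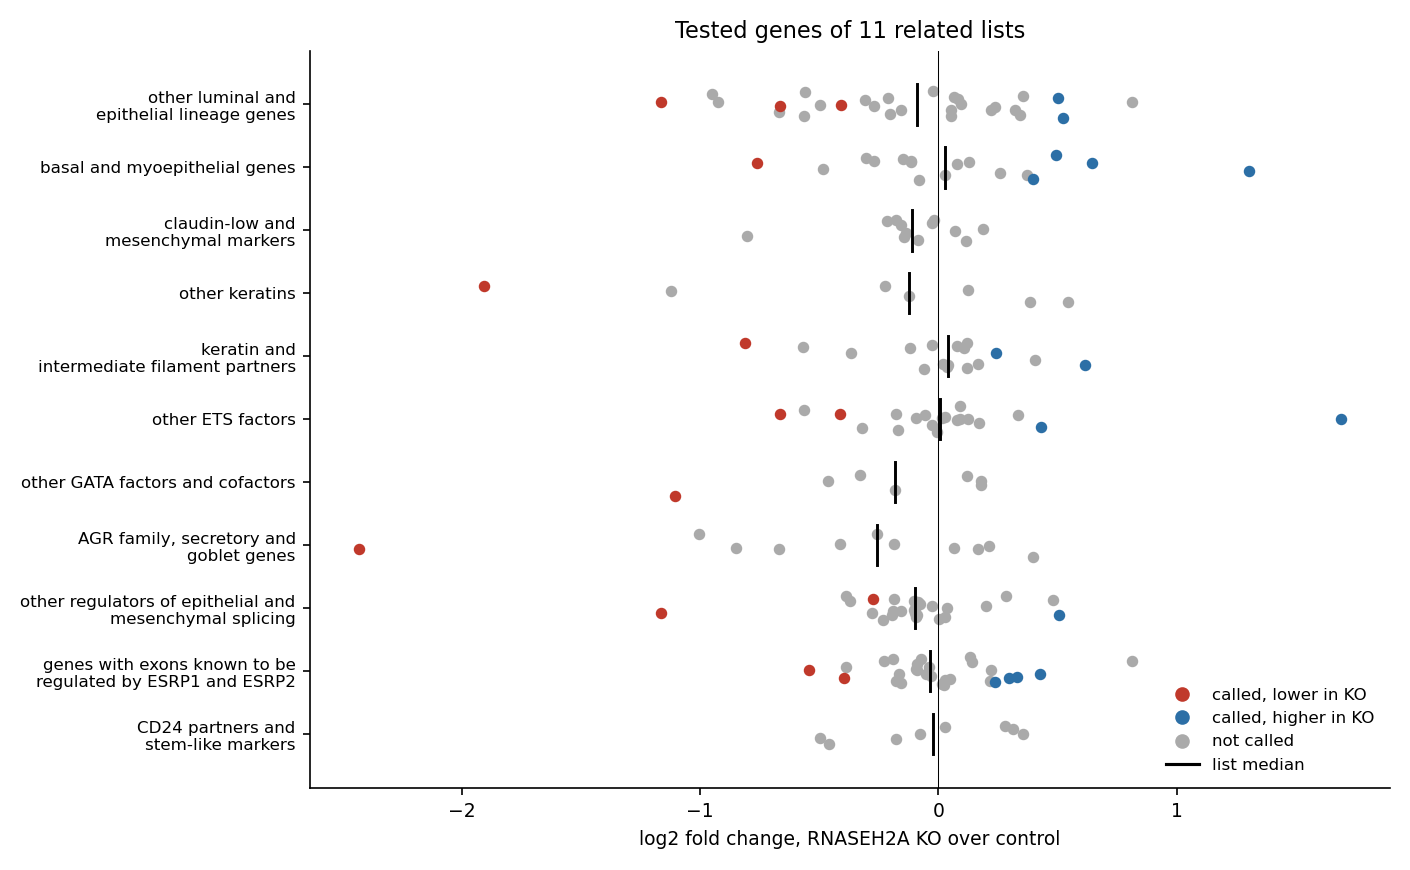
Log2 fold change of RNASEH2A KO over control (horizontal axis) for each tested gene of 11 related lists (1 line of points per list, with the median as a black bar). A gene of 2 lists is drawn in both. Called genes lie on both sides of 0, with 13 distinct genes lower (red) and 15 higher (blue).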

How the data were processed

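Reads of 6 strand-specific poly-A libraries went through FastQC and STAR version 2, with GRCh38 as the build, per the submitters' processing notes. The sources used here do not give the counting tool, the use of strand or the annotation. The deposited table of raw read counts, as named in its file header, was used for all main results. The deposited table of log2 CPM values, made by the authors with settings that the sources used here do not give, holds 15066 genes and served an alternative only. The genotype label gave the groups and the titles gave the replicate numbers.

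Genes were kept by filterByExpr (14199 of 25330), scaled by TMM and tested with edgeR 4.0.16 in R 4.3.3 (quasi-likelihood F test, two-sided, no covariate). Benjamini-Hochberg adjustment ran over all tested genes, with calls made at an adjusted p under 0.05. CPM are on the TMM scale, and log2 CPM used a prior count of 2. The SE of a log2 fold change is its size over the square root of F. Fits were tested on simulated data. Alternatives used DESeq2 1.42.0, limma 3.58.1 (voom, and the deposited log2 CPM), RLE factors, library size alone, no filter, a filter at a mean of 1 CPM, a replicate block and leaving out each library. No pair of libraries agreed within the sampling noise of independent counts (chi-square per degree of freedom 2.48 to 40.1). The counts of SPDEF, AGR2, CD24, ESRP1 and KRT19 are even in all 6 libraries, as are those of 23.9% of 6518 genes with few counts, so both mates of a read pair may have been counted and the limit for a count of 0 may be too low. Sampling noise would then be larger as well, and the smallest chi-square, 2.48 between control replicates 2 and 3, may lie near it.

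Same-numbered KO and control libraries deviated together from their group means (correlations 0.501, 0.316 and 0.156). The numbers were taken as pairs in the replicate block alternative only, and the main fit was unpaired. This pairing rests on the data and on the numbers in the titles, and it is uncertain beyond replicate 1. KO replicate 2 correlated nearly as well with control replicate 3 (0.308), and KO replicate 3 correlated better with control replicate 2 (0.323).

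The luminal genes, the 11 lists and the tests were chosen with earlier results of these data known. Named genes are the 10 luminal genes, RNASEH2A, the 4 called genes of each list with the smallest p (2 where none was called), the 3 genes most alike to SPDEF and to AGR2, and list genes at or above 100 CPM in either group. ZEB1, SNAI2, TXNDC12, CDH1, TP63, GATA6, KRT86, ESR1, FOXA1, PGR, KRT5 and KRT6A were named in addition, after their values were seen. Positions are from GENCODE 29 (13320 tested genes placed by symbol), lengths are those of the longest principal transcript, and promoters are from RefSeq.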

Additional observations from a re-analysis of the deposited data

How the results depend on the processing

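Of 14199 tested genes, 1718 were called; the count was 3099 with the replicate block and 524 to 3430 when a library was left out, the highest without KO replicate 1 and the lowest without KO replicate 3. Of the 9 tested luminal genes, 4 were called, and 2 to 6 when a library was left out (2 without control replicate 2 or 3 or KO replicate 3). The block gave 6. Distinct genes of the 11 lists called were 28, against 44 with no filter on low counts, 61 with the replicate block and 11 to 62 when a library was left out, the highest without KO replicate 1. The type II over type I keratin difference was -0.05 on the log2 scale per principal transcript length and -0.09 per union exon length, which also separated the groups, an alternative chosen after seeing the data. The cause of these shifts was not tested. Of 754 gene and setting pairs over 54 named genes and 14 settings, 651 kept their direction and call, 55 lost the call, 43 gained it and 5 reversed, each far from a call when a library was left out: TXNDC12 (-0.0676 to 0.183, below 0 without KO replicate 3), TP63 (-0.449 to 0.153, above 0 without control replicate 2 or KO replicate 1 or 2) and VIM (-0.0621 to 0.00896, above 0 without KO replicate 1). KRT7 and KRT86 were also called with no filter, by DESeq2, by limma-voom and on the deposited log2 CPM. GATA6 and QKI were also called with no filter, by DESeq2 and on the deposited log2 CPM. ALDH1A3 and LYN were also called with no filter and by DESeq2, CD24 with no filter and by limma-voom, and MUC1 with no filter. Among these 54 genes the replicate block changed no call other than those of KRT7, CD24, ALDH1A3, LYN, GATA6, MUC1, QKI, CD44, KRT86, KRT80 and CDH1. Scaling moved the median of all genes to at most 0.02. Depth limits ESRP1, AGR2 and FLI1, whose counts are few.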
